A study of Rattus norvegicus with 6 samples.

Results

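The insulin-like growth factor (IGF) system was examined in liver endothelial cells of cirrhotic and control rats. It comprised 10 genes, namely the ligands Igf1 and Igf2, the receptor Igf1r and the binding proteins Igfbp1 to Igfbp7, out of 10411 genes named on the array. Taken were all probe sets whose only gene symbol was 1 of these names, which gave 18 of the 15866 probe sets, dim ones included. The set was picked because Igfbp5 had 1 of the most consistent rises in cirrhotic cells, so the values of Igfbp5 are given as a description without a test, and the other genes were included as its family.

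The study measured RNA on 6 Affymetrix rat 230A arrays, 3 from cirrhotic and 3 from control Wistar rats. Per the labels the cirrhotic animals were adult males in which cirrhosis had been induced. The sources used here do not give the way of induction, the sex or age of the controls, or how many rats went into an array. The cells had been released with collagenase, separated by density and captured on magnetic beads carrying antibodies, whose target the labels leave out. Because nothing says that the arrays came from separate animals, p-values cover the spread among the 6 arrays alone, and so few arrays limit the precision.

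IGF1 and IGF2 are secreted growth factors that signal through the tyrosine kinase receptor encoded by Igf1r, while the receptor encoded by Igf2r takes up IGF2 for breakdown. In blood and tissue most IGF is held by binding proteins, which prolong its life, carry it or keep it from its receptor until proteases cut them. In the liver the hepatocyte is the main source of circulating IGF1 and of Igfbp1, whose transcription insulin represses, whereas Igfbp3 is made mainly by cells other than hepatocytes in the rat liver.

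The trimmed mean signal was between 399.2 and 399.6 on all 6 arrays. Of 17 tested endothelial markers, Pecam1, Kdr and Stab1 among them, all 17 fell in cirrhotic cells, with a median difference of -1.21 on the log2(signal + 16) scale used throughout. Their summed signal ranged from 31690 to 35538 in cirrhotic and from 67645 to 72997 in control arrays. None of the tested markers of other cells had a signal of 0. Some read no higher than the brightest bacterial control probe set of their array, and such signals gave only a bound. Among them were Cldn3 on all 3 control arrays (37.0, 42.7 and 24.0) and Clec4f on cirrhotic array 3 (35.5). Of 18 stellate cell and myofibroblast markers 14 rose (summed signal 27359 to 44210 in cirrhotic, 7636 to 8685 in control), of 8 cholangiocyte markers 7 rose (5217 to 13403 in cirrhotic, 724 to 1483 in control), and of 24 hepatocyte markers 9 rose and 1 fell (58560 to 117590 in cirrhotic, 49640 to 70391 in control). Of 13 macrophage markers 2 rose and 1 fell, 6 of 12 markers of T and NK cells rose, and of 4 mast cell markers 3 rose and 1 fell. Of 5 markers of lymphatic endothelium and mesothelium, Mmrn1, Pdpn and Prox1 rose, by 3.64, 1.77 and 1.47, Flt4 fell by 1.22 and Msln did not pass (summed signal 2124 to 2925 in cirrhotic, 1106 to 1378 in control). On these bulk arrays a change in the number of cells of a type and a change in RNA per cell cannot be told apart.

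Of the 18 probe sets, 11 from 9 genes were bright enough to be tested, and 7 were too dim. Apart from Igfbp5, 10 probe sets of 8 genes were tested, of which 3 rose, 1 fell and 6 did not pass limma's moderated test at a Benjamini-Hochberg adjusted p under 0.05 over all 9519 tested probe sets. In that fit 25.4% of all tested probe sets passed, 12.3% higher and 13.2% lower in cirrhotic. Both probe sets of Igf1 and that of Igfbp1 rose, and Igfbp4 fell. The groups did not overlap for 6 of the 10, 4 higher and 2 lower, against 44.9% of all tested probe sets, 20.8% higher and 24.1% lower. The median difference of the 10 was 0.19, beside -0.02 over all tested probe sets. Because the set was chosen from this same comparison, nothing is read from these shares.

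**Figure D1:**
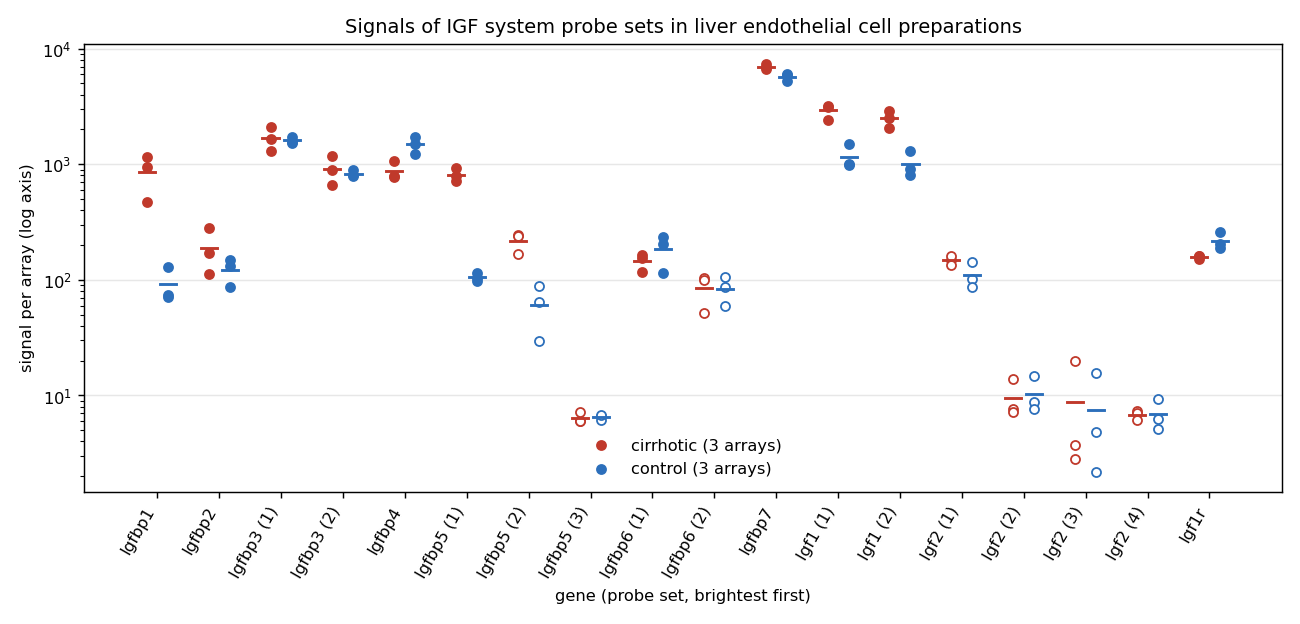
Signal of each IGF system probe set on each array (vertical log axis; points are arrays, bars are group means of 3 arrays; open points were too dim to be tested; numbers in brackets rank a gene's probe sets by brightness). All cirrhotic points lie above all control points for Igfbp1, both Igf1 probe sets, Igfbp7 and the 2 brighter Igfbp5 probe sets, and below them for Igfbp4 and Igf1r.

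Igf1, which encodes the growth factor that growth hormone induces in liver, rose in cirrhotic cells on both of its probe sets. The first read 3150, 2430 and 3198 on cirrhotic arrays 1 to 3, against 1499, 1004 and 979 on control arrays 1 to 3. The lowest cirrhotic signal was above the highest control signal, and within the control group array 1 stood above the other two. The difference was 1.34 (SE 0.20, n = 3 per group, adjusted p = 0.00296, limma). The second probe set read 2906, 2070 and 2506 in cirrhotic and 1308, 916 and 807 in control arrays, a difference of 1.31 (SE 0.21, adjusted p = 0.00388, limma). Both probe sets therefore gave the same order of groups and nearly the same size. Igf1 rose in every setting tried, with differences from 1.23 to 1.54 on the first probe set. The summed stellate cell markers were higher on all 3 cirrhotic arrays than on any control array. So were the sums for cholangiocytes, mast cells, and lymphatic endothelium and mesothelium. The hepatocyte sums overlapped, at 58560 on cirrhotic array 2 and 70391 on control array 1, as did those of macrophages and of T and NK cells. Among cirrhotic arrays, both Igf1 probe sets, the stellate cell sum and the hepatocyte sum were lowest on array 2. The part of any cell type in the Igf1 difference was not tested.

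Igf2, an imprinted growth factor of fetal tissues, could not be tested on any of its 4 probe sets. The brightest read 147.7, 161.5 and 133.9 in cirrhotic and 143.0, 102.7 and 86.4 in control arrays. These ranges overlap, since control array 1 reached the level of the cirrhotic arrays. Without the filter on dim probe sets its difference was 0.39 (SE 0.21, adjusted p = 0.267, limma). The other 3 probe sets read between 2.2 and 19.7 on all 6 arrays, under the brightest of 27 bacterial control probe sets on each array (21.7 to 49.9), so they gave only a bound.

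H19, the noncoding RNA imprinted together with Igf2, rose although Igf2 gave no such call. Its signals were 452.6, 244.2 and 690.2 in cirrhotic, against 68.0, 92.5 and 47.5 in control arrays, without overlap. The difference was 2.41 (SE 0.36, adjusted p = 0.00337, limma), and whether it differs from that of Igf2 was not tested. The control mean of 69.3 was under the filter level of about 127, which H19 passed through its cirrhotic signals. Without the filter the adjusted p of H19 was 0.00661 (limma).

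Igf1r, the receptor through which IGF1 signals, read 152.9, 159.9 and 161.1 in cirrhotic and 258.6, 189.0 and 202.8 in control arrays. The cirrhotic signals lay close together and just under the lowest control signal. The difference was -0.41 (SE 0.16, adjusted p = 0.0990, limma) and did not pass. It passed only with array weights (-0.49, adjusted p = 0.0280), and its adjusted p ranged from 0.0280 to 0.296 over the settings tried.

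Igf2r, the IGF2 and mannose 6-phosphate receptor, rose on both of its probe sets. The brighter read 637.2, 1031.6 and 436.8 in cirrhotic and 252.1, 270.5 and 209.8 in control arrays, a difference of 1.39 (SE 0.28, adjusted p = 0.0107, limma). The other read 397.2, 611.1 and 334.8 in cirrhotic and 171.1, 183.3 and 159.0 in control arrays, a difference of 1.27 (SE 0.22, adjusted p = 0.00543, limma). Cirrhotic array 2 was highest and array 3 lowest on both, and no cirrhotic signal fell within the control range. The insulin receptor gene Insr could not be tested because it was dim, and read 106.2, 95.9 and 110.7 in cirrhotic and 115.4, 129.9 and 84.7 in control arrays.

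Igfbp1, a binding protein secreted by hepatocytes and repressed by insulin, had the largest difference of the tested family. It read 948.4, 1158.8 and 469.5 in cirrhotic, against 71.5, 128.4 and 74.1 in control arrays. Every cirrhotic signal was above every control signal, but cirrhotic array 3 was well below arrays 1 and 2. The difference was 2.97 (SE 0.34, adjusted p = 0.00119, limma). The control mean of 91.3 was under the filter level of about 127, which Igfbp1 passed through its cirrhotic signals. Without the filter the adjusted p was 0.00259 (limma). The difference ranged from 2.71 to 3.35 when 1 array was left out, the largest value being without cirrhotic array 3. It was 2.12 with 126 in place of 16 added to the signals.

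Cirrhotic array 3 stood apart from the other two in the markers of other cells and in some binding proteins. It held the highest cirrhotic signal of all 24 tested hepatocyte markers, and the lowest of all 8 cholangiocyte, all 13 macrophage and all 12 T and NK cell markers and of 3 of 4 mast cell markers. Igfbp1 was 1.13 lower on array 3 than on the mean of cirrhotic arrays 1 and 2, where the median cholangiocyte marker was 2.06 lower, the median mast cell marker 1.11 lower, the median macrophage marker 1.03 lower, the median T and NK cell marker 0.96 lower and the median hepatocyte marker 0.97 higher. Igfbp2 was 0.93 higher and the 2 probe sets of Igfbp3 were 0.52 and 0.62 higher on array 3. On the probe sets of Igf1 array 3 was 0.21 and 0.03 higher. These are differences of 1 array from 2, given without a test, and the part of any cell type in them was not tested.

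**Figure D2:**
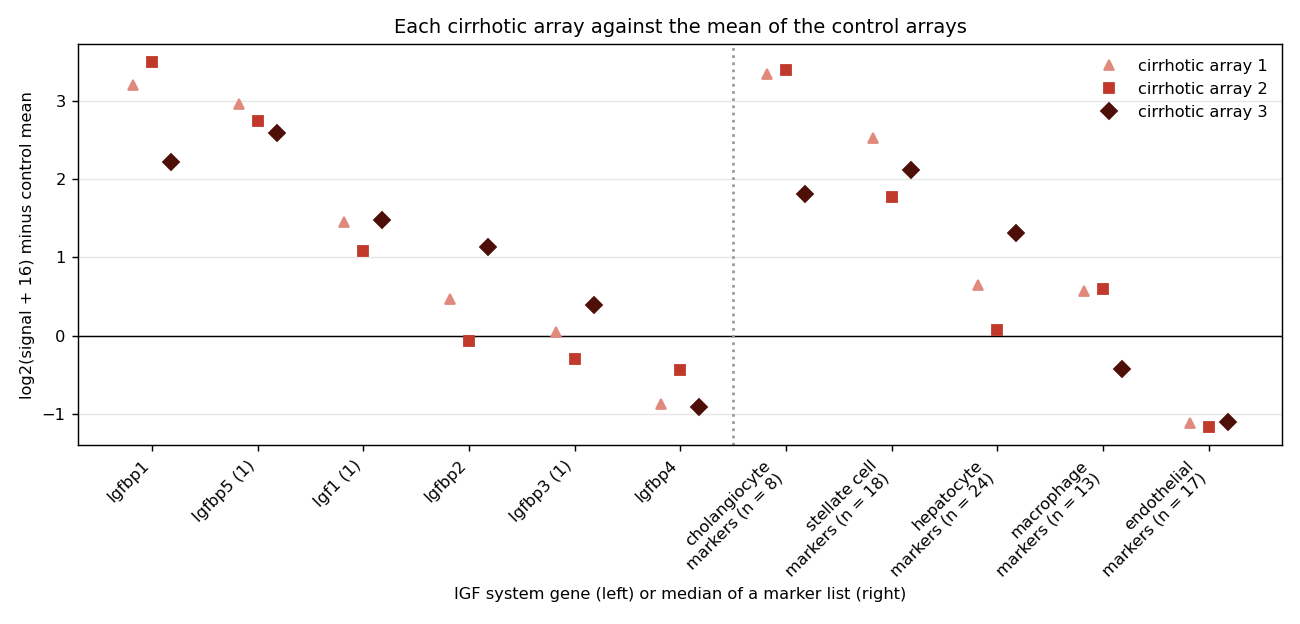
Difference of each cirrhotic array from the mean of the 3 control arrays, in log2(signal + 16), for IGF system genes (left of the dotted line) and for the median gene of each marker list (right; n is the number of genes). Array 3 is lowest for Igfbp1 (2.22) and the cholangiocyte markers (1.80) and highest for Igfbp2 (1.13) and the hepatocyte markers (1.31).

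The tested genes with profiles nearest to Igfbp1 over the 6 arrays, by the root mean square difference of log2 values centred on the control mean, were Tnfrsf4 (0.284), Cpa3 (0.307), Cldn3 (0.336), Bex4 (0.390) and Plod2 (0.395). Cpa3 encodes a mast cell carboxypeptidase, Cldn3 a tight junction protein of epithelium and Plod2 a collagen lysyl hydroxylase. Cpa3 was on the mast cell and Cldn3 on the cholangiocyte marker list, and none of the 5 was on the hepatocyte list. These lists held 4, 8 and 24 of the 7148 tested genes, so nothing is read from membership. Each of the 5 had its lowest cirrhotic signal on array 3, for example 481.6 against 792.0 and 1175.2 for Tnfrsf4. The genes were picked for likeness to Igfbp1 over these same arrays, so a shared low array 3 is part of the choice. Over 6 arrays in 2 groups this likeness is mostly the difference between the groups.

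Promoter windows are shown for the members with the largest differences, to set the insulin-repressed Igfbp1 beside Igf1, Igfbp5 and Igfbp4. Each is the 250 bases before a RefSeq start site in GRCr8, 5′ to 3′, taken from RefSeq for Igfbp1 (chr14:86261027-86261276, plus strand), Igf1 (chr7:24172282-24172531, plus strand), Igfbp5 (chr9:81914188-81914437, minus strand) and Igfbp4 (chr10:84491221-84491470, plus strand). All 10 genes had such a window, Igf2 having 2. Capitals mark matches on either strand to the TATA box TATAAA, the insulin response motif in its forms TGTTTTG and TATTTTG, the GC box GGGCGG and the CCAAT box CCAAT.
Igfbp1: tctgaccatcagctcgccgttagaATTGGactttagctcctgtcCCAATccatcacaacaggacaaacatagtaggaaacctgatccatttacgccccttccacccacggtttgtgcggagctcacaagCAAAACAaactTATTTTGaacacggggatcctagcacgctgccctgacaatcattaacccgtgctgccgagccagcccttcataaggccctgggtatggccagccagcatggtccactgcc
Igf1: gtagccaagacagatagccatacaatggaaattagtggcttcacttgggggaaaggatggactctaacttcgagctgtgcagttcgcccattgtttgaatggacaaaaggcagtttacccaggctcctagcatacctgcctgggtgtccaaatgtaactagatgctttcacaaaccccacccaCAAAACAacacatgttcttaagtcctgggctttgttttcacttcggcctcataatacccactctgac
Igfbp5: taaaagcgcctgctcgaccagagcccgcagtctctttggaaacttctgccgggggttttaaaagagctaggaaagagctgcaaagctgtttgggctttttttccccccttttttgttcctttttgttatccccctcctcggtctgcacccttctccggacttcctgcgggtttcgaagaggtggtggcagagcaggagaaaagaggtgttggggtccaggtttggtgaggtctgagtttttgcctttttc
Igfbp4: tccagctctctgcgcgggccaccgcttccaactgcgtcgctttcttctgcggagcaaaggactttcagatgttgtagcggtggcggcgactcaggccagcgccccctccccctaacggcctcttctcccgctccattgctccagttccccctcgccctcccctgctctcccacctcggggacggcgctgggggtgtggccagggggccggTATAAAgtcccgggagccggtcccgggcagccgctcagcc
In Igfbp1 the capitals from base -121 to -115 and from -110 to -104, counted back from the start, are the form TGTTTTG on the minus strand and the form TATTTTG on the plus strand, and those further upstream are 2 CCAAT boxes. The form TGTTTTG was in 5.46% and TATTTTG in 4.46% of the 33469 RefSeq windows of this length, and the CCAAT box in 34.0%. Igf1 held the form TGTTTTG on the minus strand at -67 to -61, and of the 10 genes no other held either form. Igfbp4 held the TATA box at -40 to -35, found in 12.9% of windows, and none of these letters was in the Igfbp5 window. The GC box, in 30.5% of windows, was in none of the 4 printed windows. No motif overlapped another. A match is a description of the letters and not a measured site.

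Igfbp5, which binds extracellular matrix as well as IGF and is made by mesenchymal cells, was the gene for which the set was picked. Its brightest probe set read 923.3, 796.0 and 712.2 in cirrhotic, against 104.2, 97.8 and 114.6 in control arrays. The means were 810.5 ± 106.3 in cirrhotic and 105.5 ± 8.48 in control (SD, n = 3 each), a difference of 2.76. The 3 cirrhotic arrays stood 2.95, 2.74 and 2.59 above the control mean. The second was too dim to be tested and read 244.4, 166.2 and 241.9 in cirrhotic, against 88.5, 29.5 and 64.2 in control arrays, a difference of 1.67 without overlap. The third read 6.0 to 7.2 on all 6 arrays, under the bacterial control probe sets, and so measured no difference in either direction. On the same arrays 14 of 18 tested stellate cell markers rose, with a median difference of 2.08, beside 12.3% of all tested probe sets called higher. Several of these markers passed the filter only through their cirrhotic signals. Without the filter 16 of 22 rose, with a median of 2.02, beside 1279 of all 15866 probe sets called higher. Of the tested cholangiocyte markers 7 of 8 rose, with a median of 3.11, and without the filter 6 of 10 rose, with a median of 2.78. The medians of the mast cell list and of the lymphatic endothelium and mesothelium list were 2.07 and 1.47. The stellate cell median stood 2.52, 1.77 and 2.11 above the control mean on cirrhotic arrays 1 to 3. The part of any cell type in the Igfbp5 difference was not tested.

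Igfbp4, a binding protein that holds IGF back from its receptor, was the only member called lower. It read 795.6, 1074.3 and 773.5 in cirrhotic and 1738.4, 1217.6 and 1496.6 in control arrays. The groups did not overlap, with cirrhotic array 2 and control array 2 closest to each other. The difference was -0.74 (SE 0.18, adjusted p = 0.0228, limma). It no longer passed when control array 1 (adjusted p = 0.0801, limma), control array 3 (0.0791) or cirrhotic array 1 (0.0861) was left out, nor with array number as a replicate block (0.0575), and leaving out 1 array gave differences of -0.62 to -0.89. All 17 endothelial markers fell on the same arrays, with a median of -1.21, beside 13.2% of all tested probe sets called lower. Their part in the Igfbp4 difference was not tested. The genes nearest to Igfbp4 in profile were Lmtk2, Fhip2a, Mfng, Coro2b and Atp6v0a1, at root mean square differences of 0.0535 to 0.101.

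**Figure D3:**
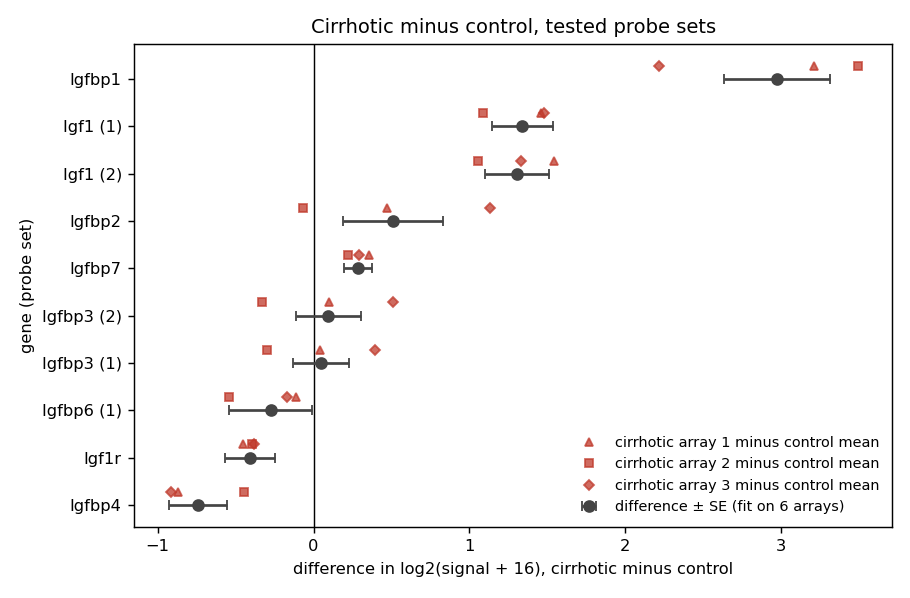
Difference in log2(signal + 16), cirrhotic minus control, for the 10 tested probe sets of genes other than Igfbp5 (black points and bars are the fitted difference ± SE over 6 arrays; red marks are each cirrhotic array minus the control mean). Igfbp1 has the largest difference (2.97), with cirrhotic array 3 lowest, followed by both probe sets of Igf1 (1.34 and 1.31), and Igfbp4 has the largest fall (-0.74).

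Igfbp7, a weak IGF binder abundant in vessel walls, had high signals in both groups. It read 7321, 6677 and 7008 in cirrhotic and 5256, 5903 and 6058 in control arrays, without overlap. The difference of 0.29 (SE 0.09, adjusted p = 0.0509, limma) did not pass, and it was on the other side of the threshold in 4 of 15 other settings, among them quantile normalization (0.30, adjusted p = 0.0378). Over the settings its difference was 0.21 to 0.35.

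Igfbp3, the main carrier of IGF in serum, did not pass on either probe set. The brighter read 1653, 1304 and 2111 in cirrhotic and 1714, 1569 and 1538 in control arrays, a difference of 0.05 (SE 0.18, adjusted p = 0.875, limma). The other read 891.8, 657.2 and 1189.6 in cirrhotic and 810.8, 887.3 and 793.7 in control arrays, a difference of 0.09 (SE 0.21, adjusted p = 0.772, limma). In both cases the control arrays lay inside the spread of the cirrhotic arrays, with array 2 lowest and array 3 highest. Without cirrhotic array 3 the differences were -0.13 and -0.11.

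Igfbp2, a binding protein that the liver also secretes, read 171.5, 113.1 and 281.0 in cirrhotic and 131.1, 147.2 and 87.4 in control arrays. Its groups overlapped, and the difference of 0.51 (SE 0.32, adjusted p = 0.273, limma) did not pass. It was 0.20 without cirrhotic array 3 and 0.80 without cirrhotic array 2. Igfbp6, which prefers IGF2 over IGF1, read 163.2, 116.9 and 155.6 in cirrhotic and 235.1, 204.5 and 114.7 in control arrays on its tested probe set, a difference of -0.27 (SE 0.27, adjusted p = 0.481, limma). On its dim probe set it read 51.6 to 104.7 in cirrhotic and 59.3 to 106.7 in control arrays.

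In the GRCr8 annotation Igfbp1 and Igfbp3 are adjacent protein-coding genes on chromosome 14, and Igfbp2 and Igfbp5 on chromosome 9. Igfbp1 rose and Igfbp3 did not pass the test. The difference between these genes was not tested.

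The other genes of the pathway were taken from 6 lists with 48 tested genes of 86 listed, of which 10 rose, 8 fell and 30 did not pass. Their median difference was 0.08, beside -0.02 over all tested probe sets, of which 25.4% passed. In the fits that left out 1 array at a time, 10 of the 18 kept their call in all 6, and the other 8 lost it in at least 1.

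Of the acid-labile subunit, the proteases that cut binding proteins and their inhibitors, 3 of 11 tested genes rose and 2 fell. The gelatinase Mmp2 read 2673, 1561 and 2159 in cirrhotic and 418.6, 364.0 and 303.2 in control arrays, a difference of 2.48 (SE 0.22, adjusted p = 0.000518, limma). The serine protease Htra3 rose by 1.66 (SE 0.24) and the tissue plasminogen activator Plat by 1.53 (SE 0.26), while the lysosomal protease Ctsd fell by 0.82 (SE 0.14). Htra1, whose human counterpart cleaves IGFBP5 and which was singled out after its values were seen, fell by 0.56 (SE 0.13). It no longer passed when control array 2 (adjusted p = 0.0625, limma), control array 3 (0.0784) or cirrhotic array 1 (0.0687) was left out. Igfals, the acid-labile subunit that joins Igfbp3 and IGF in serum and is made by hepatocytes, was too dim to be tested. It read 20.3, 9.0 and 126.6 in cirrhotic and 16.2, 7.4 and 6.6 in control arrays, so that only cirrhotic array 3 was above the bacterial control probe sets.

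Among 7 tested receptors and receptor substrates, Igf2r rose, Gab1 fell and 5 did not pass. The docking protein gene Gab1 read 546.9, 424.5 and 633.9 in cirrhotic, against 1445, 1140 and 1519 in control arrays, a difference of -1.34 (SE 0.19, adjusted p = 0.00237, limma). The receptor-binding adaptors Grb10 and Grb14 had differences of 0.44 (SE 0.17, adjusted p = 0.0939, limma) and 0.70 (SE 0.27, adjusted p = 0.0978), and Grb10 passed without cirrhotic array 3 (adjusted p = 0.0254). Irs2, a substrate of the insulin and IGF1 receptors, differed by 0.38 (SE 0.22, adjusted p = 0.240) and did not pass, and Irs1 was too dim, with signals of 38.2 to 69.4 in cirrhotic and 36.1 to 64.0 in control arrays.

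Of 7 tested genes of the growth hormone axis, Jak2 and Ptpn6 rose and Socs3 fell. The kinase gene Jak2 rose by 0.97 (SE 0.22) and the phosphatase gene Ptpn6, active in blood cells, by 1.29 (SE 0.38). Jak2 no longer passed when cirrhotic array 1 or any control array was left out (adjusted p up to 0.0687, limma), and Ptpn6 when any array but cirrhotic array 3 was (0.0609 to 0.130). Socs3, which damps cytokine signalling, fell by 0.62 (SE 0.11, adjusted p = 0.00685). The growth hormone receptor gene Ghr did not pass on its brighter probe set (0.09, SE 0.36, adjusted p = 0.882), where cirrhotic array 3 read 376.0 and the other cirrhotic arrays 150.0 and 127.6, against 216.9, 163.1 and 171.2 in control. Stat5a differed by 0.26 (SE 0.18, adjusted p = 0.319) and did not pass.

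Of 17 tested genes of phosphoinositide 3-kinase, AKT and FOXO signalling downstream of the receptors, 1 rose, 2 fell and 14 did not pass. The kinase gene Akt2 rose by 0.54 (SE 0.15), and the kinase genes Pik3ca and Mtor fell by 0.62 (SE 0.14) and 0.50 (SE 0.13). The calls of Akt2 and Mtor each ended without any 1 of 5 of the 6 arrays (adjusted p from 0.0568 to 0.125 and from 0.0602 to 0.113, limma), the exceptions being cirrhotic array 3 for Akt2 and cirrhotic array 2 for Mtor. That of Pik3ca ended without control array 1 or cirrhotic array 1 (0.0586 and 0.0599). The regulatory subunit gene Pik3r2 differed by 0.28 (SE 0.12, adjusted p = 0.123) and did not pass.

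**Figure D4:**
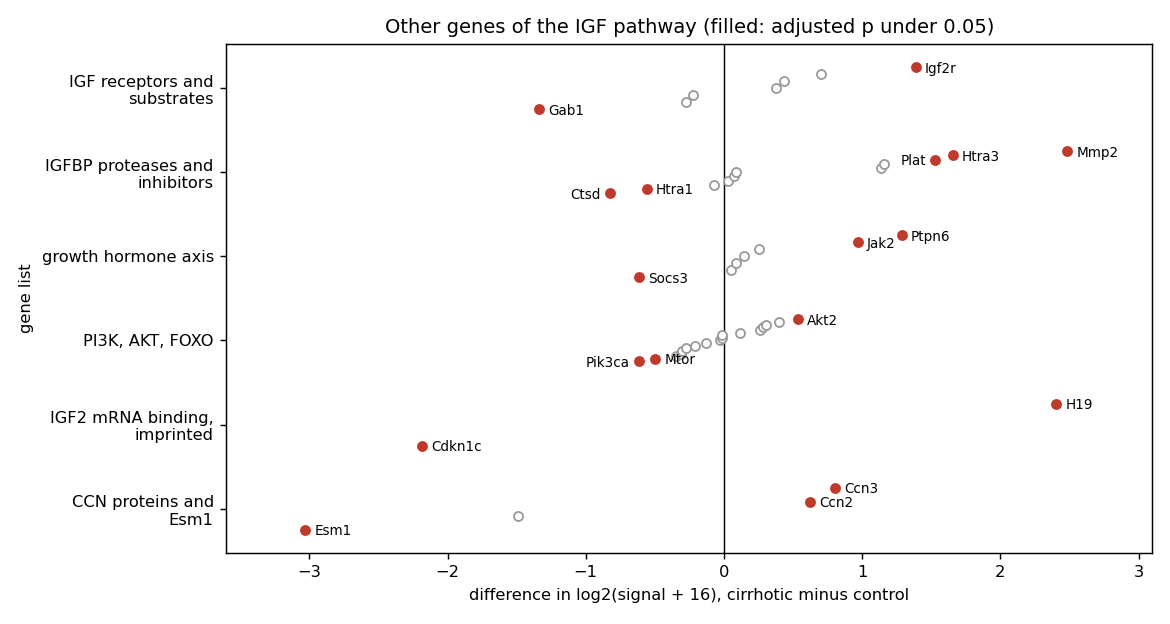
Difference in log2(signal + 16), cirrhotic minus control, of the 48 tested genes in 6 lists of the IGF pathway (filled and named: adjusted p under 0.05; open: not passed). The highest are Mmp2 (2.48) and H19 (2.41) and the lowest Esm1 (-3.03) and Cdkn1c (-2.19), while the 17 phosphoinositide 3-kinase, AKT and FOXO genes lie within 0.62 of 0.

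Besides H19, the imprinted list held Cdkn1c, an inhibitor of cell cycle kinases. It read 189.0, 240.9 and 167.8 in cirrhotic, against 1058, 931.2 and 880.2 in control arrays, a difference of -2.19 (SE 0.16, adjusted p = 0.000442, limma). Both tested genes of this list were thus called, in opposite directions.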

How the data were processed

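The 6 arrays were hybridised after the manufacturer's manual, per the labels. For each probe set the authors deposited a linear intensity, called signal here, made with software and a summary method that the sources used here do not give. Their scaling was kept, and 0 columns were left aside. Sample titles gave the groups and numbers, and the control array without a number was called control 1.

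Signals were turned into log2(signal + 16), 16 being the 10th percentile of all values. Left out were 57 control probe sets and the dimmest 40% by mean signal (under about 127). Cirrhotic and control arrays were compared over the remaining 9519 with limma 3.58.1 in R 4.3.3 (lmFit, eBayes with a variance trend), two-sided, with Benjamini-Hochberg adjustment. The test was checked on simulated data. Of 15866 probe sets 12783 had 1 symbol, 312 several and 2771 none. Symbols came from the platform annotation, and all 18 member probe sets matched the GRCr8 gene table by gene ID.

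Lists used the brightest tested probe set of each gene. Named were all members, up to 4 genes per pathway list with the smallest p, and Igf2r, Insr, Irs1, Irs2, Igfals and Ghr. Plagl1 and Dlk1 were added after their values were seen. Also named were the 5 genes nearest in profile to the member with the largest rise and to the one with the largest fall. Members and lists were chosen with earlier results of these data known. Alternatives covered normalization, pseudocount, filter, variance model, array weights, a block for array number, and fits that each left out 1 array.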

Additional observations from a re-analysis of the deposited data

How the results depend on the processing

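Over 15 other settings the 10 tested member probe sets other than that of Igfbp5 gave 146 values, of which 134 kept their direction and side of the threshold, 4 were no longer past it, 5 were newly past it and 3 changed sign. The changes of sign were those of Igfbp3, to -0.032 on its brighter probe set with median centring and to -0.13 and -0.11 on its probe sets without cirrhotic array 3; leaving out 1 array gave -0.13 to 0.22 and -0.11 to 0.31. Among these 10, the number called higher was 3 with all arrays and 3 or 4 in the other settings, in 1 of which Igfbp1 was left out as too dim. The number called lower, 1 with all arrays, was 2 with array weights, 0 with array number as a replicate block and 0 to 1 when 1 array was left out. With the block the adjusted p of Igfbp4 was 0.0575 (limma). Correlations of same-numbered deviations were 0.019, -0.0093 and -0.16. With 3 arrays per group and the number of control array 1 assigned here, these values cannot settle whether arrays were paired. Leaving out 1 array gave 5 to 11 higher and 5 to 9 lower genes of the pathway lists, against 10 and 8, and 29 to 45 higher genes of the marker lists, against 44. Over all probe sets, 3772 passed with array weights, 1394 without control array 3 and 1335 without cirrhotic array 1, against 2421. The cause of these changes was not tested. Median centring gave 925 higher and 1480 lower, against 1167 and 1254. Without the filter, which adds dim genes, the median of the list of CCN proteins was 0.34, against -0.44, and that of the imprinted list 1.00, against 0.11. The distance of a signal from the bacterial control probe sets limits what can be said of Igf2, of 2 Igfbp5 probe sets and of Igfals.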

Other observations

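CCN proteins, secreted matrix-associated proteins that carry a module like the IGF-binding one, and Esm1, a secreted endothelial proteoglycan with a similar module, were measured beside the binding proteins. Esm1 read 101.5, 125.2 and 106.6 in cirrhotic, against 743.4, 575.1 and 2455.5 in control arrays, and fell by 3.03 on the log2(signal + 16) scale (SE 0.47, adjusted p = 0.00368, limma), with a difference of -2.40 without control array 3, the highest. Ccn2, a profibrotic growth factor, rose by 0.62 (SE 0.16) and Ccn3 by 0.80 (SE 0.21). The call of Ccn2 ended without any 1 array other than cirrhotic array 3 (adjusted p from 0.0545 to 0.0889), while Ccn3 no longer passed when control array 1 (0.0571), control array 3 (0.0924) or cirrhotic array 1 (0.0807) was left out. Ccn1, an immediate early gene, read 1023, 1615 and 171.3 in cirrhotic and 1712, 2019 and 1991 in control arrays, and its difference of -1.49 (SE 0.69, adjusted p = 0.147) did not pass. Without cirrhotic array 2 it was -2.12 (adjusted p = 0.0428), and without cirrhotic array 3 -0.56 (adjusted p = 0.0800).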
